A study of Mus musculus with 12 samples.

Results

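MHC class I antigen presentation was examined in tumor-infiltrating CD8+ T cells through 38 genes chosen by their function: the class I heavy chains, their light chain, the peptide loading machinery, the transactivator of the class and the subunits of the 20S proteasome with its activators. Members had to reach 10 or more counts in at least 3 libraries. All 38 of the 38 did, of 52636 gene identifiers in the table, and all 38 were among the 14173 genes tested. They comprised 8 heavy chains, 1 light chain, 8 genes of peptide supply and loading, 1 transactivator, 3 constitutive and 3 immunoproteasome catalytic subunits, 3 proteasome activators, 7 alpha-ring subunits and 4 further beta subunits.

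The cells came from A2AR eGFP reporter mice, Tg(Adora2a-EGFP)EP141Gsat, in which a bacterial artificial chromosome places EGFP under the control regions of Adora2a, the gene of the adenosine receptor A2AR. The reporter is a transgene beside the endogenous gene, so GFP reads the activity of the transgene and not receptor protein. Female mice on the C57BL/6 background were 6 to 16 weeks old and carried subcutaneous AT3ova tumors, a mouse mammary carcinoma line that expresses ovalbumin, grown from 500000 injected cells. CD8+ T cells were flow sorted at day 21 as GFP+ or GFP-, from tumors that were non-treated or that had received anti-PD-L1, an antibody against the ligand of PD-1, at days 14 and 18. Each of the 4 conditions had 3 QuantSeq libraries, which read only the 3′ ends of transcripts, and 3 mice were pooled for each of the libraries. No batch is labelled, and GFP+ and GFP- libraries are not paired by the labels. The spread between libraries is therefore that between pools, and all groups share the tumor line and the reporter allele.

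Class I molecules display peptides from inside the cell to CD8+ T cells. The proteasome cuts proteins into peptides, the transporter TAP carries them into the endoplasmic reticulum, and a loading complex fits them to a heavy chain paired with beta-2-microglobulin. Nearly all nucleated cells run this pathway, and interferon-gamma raises it in part by exchanging the constitutive catalytic subunits of the proteasome for those of the immunoproteasome. T cells themselves are strong class I expressers.

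Total counts were 11292699 to 19023900 per library, and mitochondrial genes took 2.51% to 3.35% of them. The library KT13, non-treated GFP+, and the library KT21, anti-PD-L1 GFP+, stood apart from the rest, with median Spearman correlations with the other libraries of 0.941 and 0.935 against 0.967 to 0.977. Results are therefore given over all 12 libraries and again over 10, without these 2. Adora2a followed the sort, at 19.7 to 34.6 CPM (read counts relative to the TMM-normalized total of the library) in GFP- libraries and 60.2 to 111 CPM in GFP+ libraries. Cd8a stood at 799 to 1359.8 CPM, whereas Cd4 was at most 0.919 CPM and the 3 B cell markers together at most 1.01 CPM.

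The heavy chains lay in the major histocompatibility complex on chromosome 17 and B2m on chromosome 2. The 250 bases upstream of the RefSeq transcript start (build GRCm38.p6) were available for 32 of the 38 members and were searched on both strands. The letters used were CCAAT, the box bound by NF-Y; GAAA followed after any 2 bases by GAAA, a core of the interferon-stimulated response element; TTCNNNGAA, a core of the gamma-activated site; and TGACNNNGC, a core of the antioxidant response element. The promoters of H2-K1 and H2-Q7 are shown for their values in the comparison of GFP+ with GFP- cells, that of H2-T22 as a heavy chain with a core of the interferon-stimulated response element and that of B2m as the light chain. Capitals mark the matches, and each run reads 5′ to 3′ on the strand of its gene and stops before the annotated gene. They lie at chr17:34000348-34000597 (minus strand), chr17:35438905-35439154 (plus strand), chr17:36042748-36042992 (minus strand) and chr2:122147437-122147685 (plus strand).
H2-K1: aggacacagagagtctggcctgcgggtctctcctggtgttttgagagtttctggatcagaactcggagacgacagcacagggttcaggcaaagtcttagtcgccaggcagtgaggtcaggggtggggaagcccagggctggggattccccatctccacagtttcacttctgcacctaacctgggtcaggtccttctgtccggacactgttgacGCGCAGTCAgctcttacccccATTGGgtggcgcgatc
H2-Q7: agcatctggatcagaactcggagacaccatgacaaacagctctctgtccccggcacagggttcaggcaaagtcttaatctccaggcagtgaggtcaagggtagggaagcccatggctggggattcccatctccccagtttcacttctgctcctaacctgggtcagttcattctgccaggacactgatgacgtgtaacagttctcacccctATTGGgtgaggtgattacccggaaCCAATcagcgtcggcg
H2-T22: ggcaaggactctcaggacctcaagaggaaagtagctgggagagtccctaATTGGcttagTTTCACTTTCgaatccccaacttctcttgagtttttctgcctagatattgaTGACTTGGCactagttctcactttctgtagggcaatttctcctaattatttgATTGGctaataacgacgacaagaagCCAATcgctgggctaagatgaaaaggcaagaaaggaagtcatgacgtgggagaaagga
B2m: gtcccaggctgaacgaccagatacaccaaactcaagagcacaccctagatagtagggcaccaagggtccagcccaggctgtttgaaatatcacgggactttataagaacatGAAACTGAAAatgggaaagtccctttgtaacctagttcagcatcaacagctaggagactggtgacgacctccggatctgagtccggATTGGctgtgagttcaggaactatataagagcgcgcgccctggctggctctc

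In these runs, the capitals ATTGG or CCAAT are the CCAAT box in either orientation, TTTCACTTTC in H2-T22 and GAAACTGAAA in B2m are the interferon-stimulated core, and GCGCAGTCA in H2-K1 and TGACTTGGC in H2-T22 are the antioxidant core. A CCAAT box stood in 22 of the 32 matched members (68.8%) against 33.8% of all 32851 promoters of the same length. It was present in 8 of 8 heavy chains and in B2m. The interferon-stimulated core was found in 4 members (12.5%), namely B2m, H2-T22, H2-T23 and Psmb3, against 2.98% of all promoters. Its letters are strict, so a promoter without a match is not shown to lack such an element. TTTCACTTCT in the H2-K1 and H2-Q7 runs is close to TTTCACTTTC of H2-T22 but was not counted. The gamma-activated core stood in H2-M3 and Psmb8 (6.25% of members, 7.02% of all promoters), and the antioxidant core in 6 members (18.8% against 10.2%), among them both matched constitutive catalytic subunits, Psmb5 and Psmb6. These matches are descriptions of letters, not of occupied sites. Each member was counted once over all its windows, whereas the background was counted per promoter, so the shares are not strictly alike. Some windows did not lie upstream of the annotated gene. Those of H2-D1, Psmb8 and Psmb9, among others, lay inside it, and that of H2-T23 overlapped it in part.

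The comparison of GFP+ with GFP- cells asks how the pathway stands in CD8+ T cells that express the A2AR reporter. In non-treated tumors none of the 38 members passed an adjusted p under 0.05, in fits that called 0.00706% of 14173 genes over 12 libraries and 0.339% of 14747 genes over 10. All 8 heavy chains had a log2 fold change under 0 in both sets (medians -0.38 and -0.25), and so did all 4 non-catalytic beta subunits over 10 libraries (median -0.28), but 1 of these 4 over 12 (median 0.11). H2-K1 and H2-Q7 were the heavy chains with an unadjusted p under 0.05 in both sets. H2-K1 encodes the classical heavy chain H-2K (ENSMUSG00000061232, chr17:33996017-34000347, GRCm38). It stood at 3299.7, 3082 and 3418 CPM in non-treated GFP- libraries and at 2062, 2802 and 2604 CPM in non-treated GFP+ libraries, KT13 being the first of the latter. Every GFP+ library lay below every GFP- library. The log2 fold change was -0.39 ± 0.15 (SE, n = 3 against 3 libraries), with an adjusted p of 0.765 by the quasi-likelihood test of edgeR, adjusted by the Benjamini-Hochberg method, and -0.27 ± 0.094 over 10 libraries (adjusted p = 0.32). The unadjusted p was 0.0219 and 0.00802, so the difference did not pass the threshold of 0.05 after adjustment in either set. After anti-PD-L1, the groups overlapped, at 3026, 2801 and 3300.1 CPM in GFP- and 2931, 2229.9 (KT21) and 2975 CPM in GFP+ libraries.

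H2-Q7, a nonclassical heavy chain of the Qa-2 group, followed a like order. It was at 1369, 1314 and 1583 CPM in non-treated GFP- libraries and at 975 (KT13), 1193 and 1240 CPM in GFP+ libraries, without overlap. The log2 fold change was -0.32 ± 0.15 over 12 libraries (unadjusted p = 0.044, adjusted p = 0.816) and -0.23 ± 0.10 over 10 (unadjusted p = 0.0406, adjusted p = 0.509). After anti-PD-L1 it was at 1300.1, 1381 and 1431 CPM in GFP- and at 1165, 1005 (KT21) and 1319 CPM in GFP+ libraries, which overlapped.

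H2-D1, the other classical heavy chain, stood at 2266, 2243 and 2558 CPM in non-treated GFP- and at 1064 (KT13), 2125 and 2131 CPM in non-treated GFP+ libraries. The GFP+ libraries again lay below, by little for the last 2, and KT13 differed from those 2 by -1.0 on the log2 scale. H2-D1 after anti-PD-L1 was at 2131, 2445 and 2830 CPM in GFP- and at 2112, 1255 (KT21) and 2460.5 CPM in GFP+ libraries, with overlap. Averaged over treatments, its log2 fold change was -0.38 ± 0.19 over 12 libraries (adjusted p = 0.625) and -0.13 ± 0.078 over 10 (adjusted p = 0.621).

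All 8 heavy chains had a log2 fold change under 0 in non-treated cells, from -0.59 for H2-Q6 to -0.27 for H2-M3, with a median of -0.38, against a median of 0.002 over all 14173 tested genes. Without KT13 and KT21, all 8 were again under 0, with a median of -0.25. None of them passed the adjusted threshold. After anti-PD-L1, 7 of 8 were under 0 over 12 libraries (median -0.29) and 6 of 8 over 10 (median -0.11). The heavy chains share sequence, and H2-T22 shared 39.0% and H2-Q6 32.2% of the 75-base words of its last 500 transcript bases with other genes, H2-T10 and H2-Q7 among them, against 2.6% for H2-K1, 7.37% for H2-Q7 and 0% for H2-D1. Values of these paralogs are uncertain where reads could be split, and the members are thus not independent of each other.

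H2-T22, which encodes a nonclassical chain recognized by some gamma-delta T cells, stood at 256, 245 and 235 CPM in non-treated GFP- and at 161 (KT13), 198 and 226 CPM in GFP+ libraries, without overlap. After anti-PD-L1 it was at 227, 274 and 218 CPM in GFP- and at 214, 89 (KT21) and 221 CPM in GFP+ libraries. H2-T23, which encodes Qa-1, the ligand of NKG2A on NK and CD8+ T cells, was low throughout, at 5.61 to 20.8 CPM, and its groups overlapped under both treatments. H2-Q4, H2-Q6 and H2-M3, the last a presenter of formylated peptides, were at 15.9 to 51.2, 20.2 to 77.5 and 22.2 to 43 CPM. H2-M3 was the 1 heavy chain that was higher in KT13 (37.7 CPM) than in the other non-treated GFP+ libraries (29.6 and 24.4 CPM).

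B2m, the light chain that every class I molecule needs, was the member with the highest counts. It stood at 6949, 6581 and 6621 CPM in non-treated GFP- libraries and at 3475 (KT13), 6939 and 6337 CPM in non-treated GFP+ libraries. After anti-PD-L1 it was at 6806, 7296 and 6900.5 CPM in GFP- and at 6247, 7909 (KT21) and 6423 CPM in GFP+ libraries. KT13 was the lowest and KT21 the highest of the 12. The log2 fold change averaged over treatments was -0.15 ± 0.14 over 12 libraries (95% interval -0.45 to 0.16, adjusted p = 0.823) and -0.081 ± 0.058 over 10 (-0.20 to 0.04, adjusted p = 0.698). A difference of GFP+ from GFP- cells in B2m beyond 0.20 on the log2 scale was thus outside the interval over 10 libraries.

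**Figure D1:**
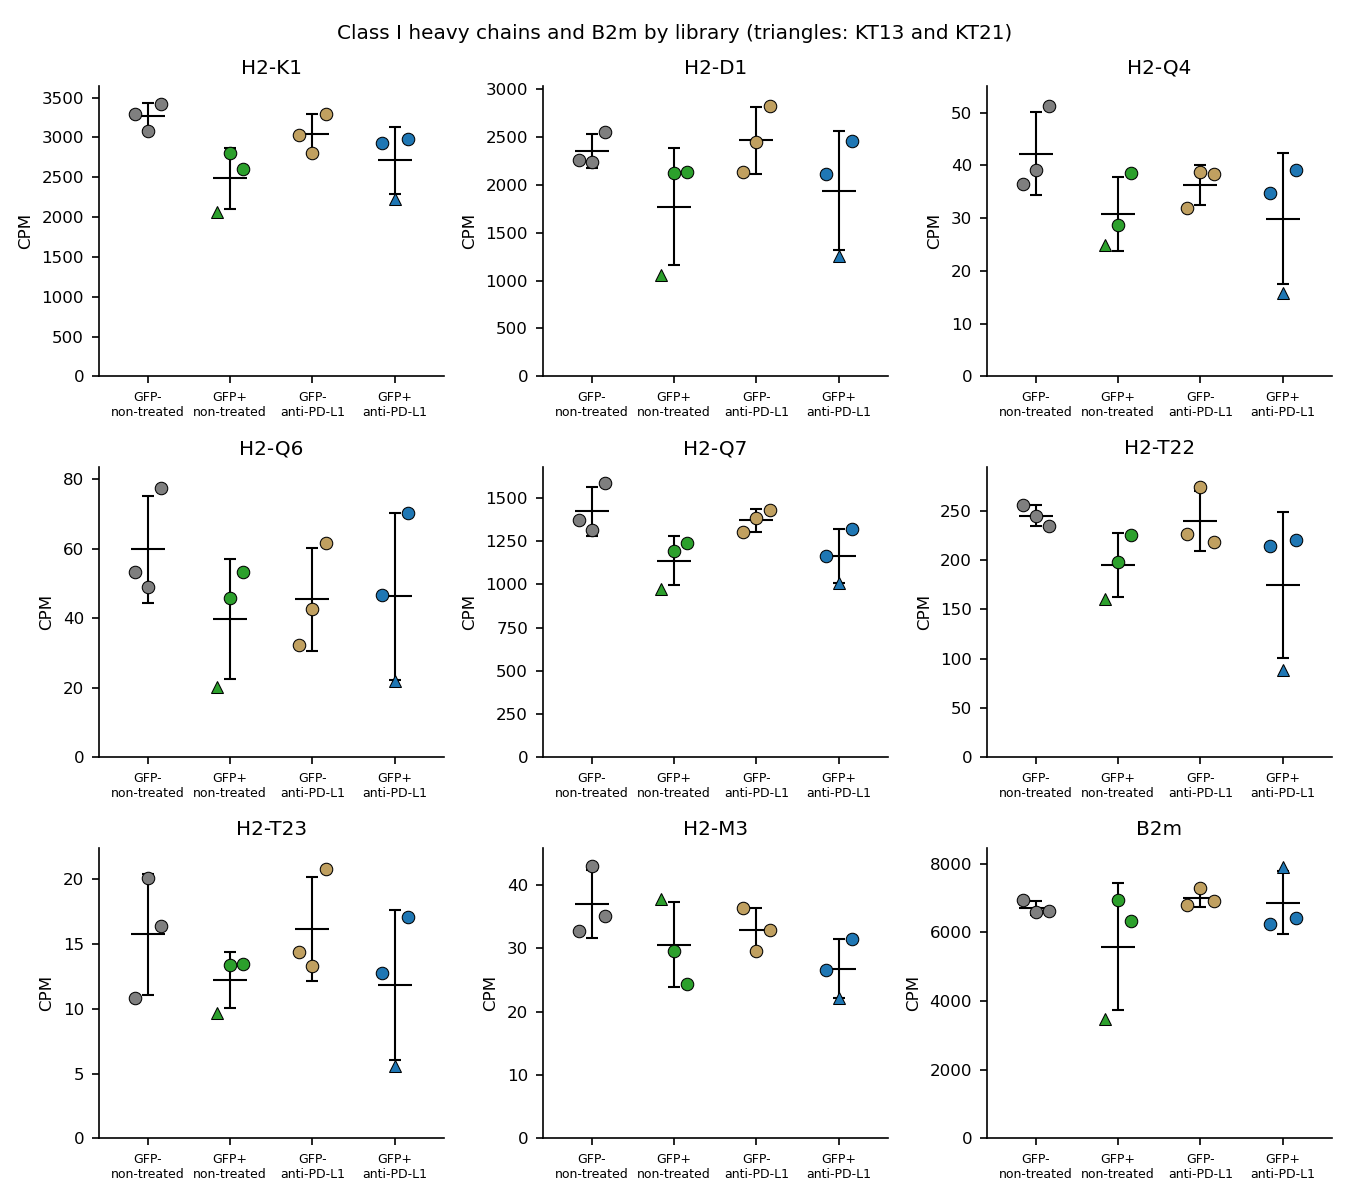
CPM (vertical axis, linear, from 0) of the 8 heavy chains and B2m in each of the 12 libraries, by condition; bars give mean and SD of 3 libraries, and triangles mark KT13 and KT21. In non-treated cells, GFP+ libraries of H2-K1 (2062 to 2802 CPM) lay below GFP- libraries (3082 to 3418 CPM), and the triangles were the lowest points of their groups for H2-D1.

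In bulk libraries, fewer cells of a type and less RNA per cell cannot be told apart, and RNA of other cells is part of each value. Class II genes, which mark antigen-presenting cells that also express class I genes, summed to 180 to 254 CPM over 4 genes in non-treated GFP- libraries and to 239.7 to 330.3 CPM in non-treated GFP+ libraries. After anti-PD-L1 the sums were 115 to 204 and 115 to 245 CPM. The 7 macrophage markers summed to 123 to 184 and 173 to 226 CPM in non-treated GFP- and GFP+ libraries, and to 66.8 to 106 and 73.3 to 137 CPM after anti-PD-L1, with C1qa among the higher ones and Adgre1 at 2 CPM or less. The 2 NK cell markers summed to 15.9 to 33.9 CPM in GFP- and 43.1 to 55.3 CPM in GFP+ libraries. Only Klrb1c separated them, at 13.8 to 30.3 CPM in GFP- and 38.0 to 51.3 CPM in GFP+ libraries. Ncr1 overlapped, at 1.21 to 5.84 and 3.29 to 6.65 CPM. The 7 T cell markers summed to 4539.9 to 4643 and 3867 to 4233 CPM in non-treated GFP- and GFP+ libraries. After anti-PD-L1 these sums were 5116 to 5362 and 4633 to 6016 CPM. The 4 epithelial markers reached at most 32 CPM and the 3 fibroblast markers at most 53.9 CPM, both in non-treated GFP+ libraries, and Foxp3 reached at most 24.9 CPM. The part of these cells in the class I values was not tested.

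The peptide supply and loading genes showed no common direction between GFP+ and GFP- cells. Tap1 and Tap2 encode the subunits of the transporter. Tap1 was at 355, 343 and 337 CPM in non-treated GFP- and 384 (KT13), 296 and 296 CPM in GFP+ libraries, and after anti-PD-L1 at 317, 399 and 344 CPM in GFP- and 324, 507 (KT21) and 305 CPM in GFP+ libraries. Its log2 fold change averaged over treatments was 0.0066 ± 0.14 over 12 libraries (adjusted p = 0.995) and -0.20 ± 0.081 over 10 (unadjusted p = 0.0237, adjusted p = 0.369). KT13 and KT21 were the highest GFP+ libraries for Tap1, so its sign turned when they were left out.

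Tap2 behaved in the opposite way, and its values were seen before it was chosen for description. It stood at 83.7, 152 and 143 CPM in non-treated GFP- and at 25.2 (KT13), 209 and 211 CPM in non-treated GFP+ libraries. After anti-PD-L1 it was at 131, 189.7 and 227 CPM in GFP- and at 166, 10.5 (KT21) and 201 CPM in GFP+ libraries. KT13 and KT21 thus held the lowest 2 values of the 12. The log2 fold change of GFP+ against GFP- cells from non-treated tumors was 0.23 ± 0.77 over 12 libraries (adjusted p = 0.98) and 0.73 ± 0.20 over 10 (unadjusted p = 0.00127, adjusted p = 0.149), which remained above the threshold and was the lowest adjusted p of any member in any comparison of the edgeR fits. Exons of Tap2 overlap those of Gm15821 and Gm20496 on the other strand, and whether counting used the strand is not given in the sources used here. Among other members, the same limit holds for Tap1 and Psmb9, whose exons overlap each other, and for Psmb8, which overlaps Gm20496. Exons of Tapbp overlap those of Zbtb22 on the same strand.

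Tapbp, which encodes tapasin, the bridge between TAP and the heavy chain, was at 347 to 457 CPM in 10 libraries and at 697 and 738 CPM in KT13 and KT21. Tapbpl, a peptide editor related to tapasin, was at 125 to 151 CPM in those 10 and at 72.3 and 108 CPM in KT13 and KT21. Erap1, the aminopeptidase that trims peptides in the endoplasmic reticulum, ranged from 39.1 to 61.6 CPM. Its groups overlapped in all 4 simple comparisons over 12 libraries. The chaperones Calr, Canx and Pdia3 ranged from 326 to 579, 131 to 189 and 100.2 to 233 CPM, with the highest value of Calr and Pdia3 in KT13 and that of Canx in KT21. Nlrc5, the transactivator of class I genes, stood at 152, 134 and 134 CPM in non-treated GFP-, 120.3 (KT13), 148 and 98.6 CPM in non-treated GFP+, 125, 145 and 129.9 CPM in anti-PD-L1 GFP- and 112, 190 (KT21) and 134 CPM in anti-PD-L1 GFP+ libraries. The Nlrc5 groups overlapped throughout, and its log2 fold change averaged over treatments was -0.034 ± 0.14 over 12 libraries (adjusted p = 0.97) and -0.15 ± 0.11 over 10 (adjusted p = 0.691).

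The catalytic subunits of the proteasome were compared as pairs, each immunoproteasome subunit with the constitutive subunit that it replaces. Psmb8, Psmb9 and Psmb10 replace Psmb5, Psmb6 and Psmb7. CPM of a 3′ method are not scaled by length, so the difference between a pair was compared only from library to library. Psmb8 ranged from 413 to 504 CPM over the 12 libraries and was the member with the narrowest interval over 12. Its log2 fold change of GFP+ against GFP- averaged over treatments was -0.071 ± 0.09 (95% interval -0.26 to 0.12, adjusted p = 0.868).

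Psmb9 stood at 244, 296 and 276 CPM in non-treated GFP-, 234 (KT13), 294 and 343 CPM in non-treated GFP+, 321, 303 and 343 CPM in anti-PD-L1 GFP- and 318, 109 (KT21) and 315 CPM in anti-PD-L1 GFP+ libraries. In GFP- cells, every anti-PD-L1 library lay above every non-treated library. KT21 lay below every other library. Psmb10 was at 181 to 225 CPM in 11 libraries and at 325 CPM in KT21. Averaged over treatments, GFP+ against GFP- gave -0.14 ± 0.21 for Psmb9 (adjusted p = 0.889) and 0.084 ± 0.14 for Psmb10 (adjusted p = 0.904), and without KT13 and KT21 both signs turned, to 0.10 ± 0.083 and -0.10 ± 0.081 (adjusted p = 0.745 for each).

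The constitutive subunits lay outside the range of the other 10 libraries in KT13 and KT21. Psmb5 was at 80 to 100.3 CPM in 10 libraries and at 101 and 154 CPM in KT13 and KT21. Psmb6 was at 87.3 to 119 CPM in 10 libraries and at 173 and 151 CPM in these 2, and Psmb7 at 79.6 to 101 CPM against 44 and 63 CPM. Averaged over treatments, GFP+ against GFP- gave 0.23 ± 0.14 for Psmb5 (adjusted p = 0.70), 0.28 ± 0.16 for Psmb6 (adjusted p = 0.68) and -0.093 ± 0.18 for Psmb7 (adjusted p = 0.918) over 12 libraries. Over 10 the values were 0.061 ± 0.094, 0.023 ± 0.10 and 0.13 ± 0.093. Reads of Psmb5 are uncertain, since 43.6% of the words at its 3′ end also occur in Gm3375.

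The mean log2(CPM + 0.5) of Psmb8, Psmb9 and Psmb10 minus that of Psmb5, Psmb6 and Psmb7 was 1.63, 1.84 and 1.64 in non-treated GFP- libraries and 1.57 (KT13), 1.57 and 1.73 in non-treated GFP+ libraries. It was 1.76, 1.78 and 1.80 in anti-PD-L1 GFP- libraries and 1.7, 1.19 (KT21) and 1.58 in anti-PD-L1 GFP+ libraries. GFP+ and GFP- libraries overlapped in non-treated tumors, whereas after anti-PD-L1 every GFP+ library lay below every GFP- library, also without KT21. The means were 1.7 ± 0.12, 1.62 ± 0.09, 1.78 ± 0.02 and 1.49 ± 0.27 (SD, n = 3 libraries each), and 1.65 ± 0.109 and 1.64 ± 0.081 for GFP+ cells without KT13 and KT21 (n = 2). The differences are descriptions without a test. After anti-PD-L1, GFP+ minus GFP- was -0.29 over 12 libraries and -0.14 over 10, and in non-treated tumors it was -0.079 and -0.051, against a pooled SD within conditions of 0.154 over 12 libraries, KT21 included, and of 0.0898 over 10.

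The 3 pairs did not move as 1 in the libraries that stood apart. Psmb9 minus Psmb6 was 0.43 in KT13 and -0.46 in KT21, below the 1.03 to 1.87 of the other 10. Psmb10 minus Psmb7 was 2.25 and 2.36 there, above the 0.89 to 1.45 of the other 10. Psmb8 minus Psmb5 was 2.03 and 1.67, below the 2.15 to 2.48 of the other 10. After anti-PD-L1, each of the 3 pairs overlapped between GFP+ and GFP- libraries over 12 libraries, and without KT21 only Psmb10 minus Psmb7 did not, at 1.03 and 0.95 in GFP+ against 1.05 to 1.4 in GFP- libraries. Each pair also overlapped between the 2 treatments of GFP- cells.

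**Figure D2:**
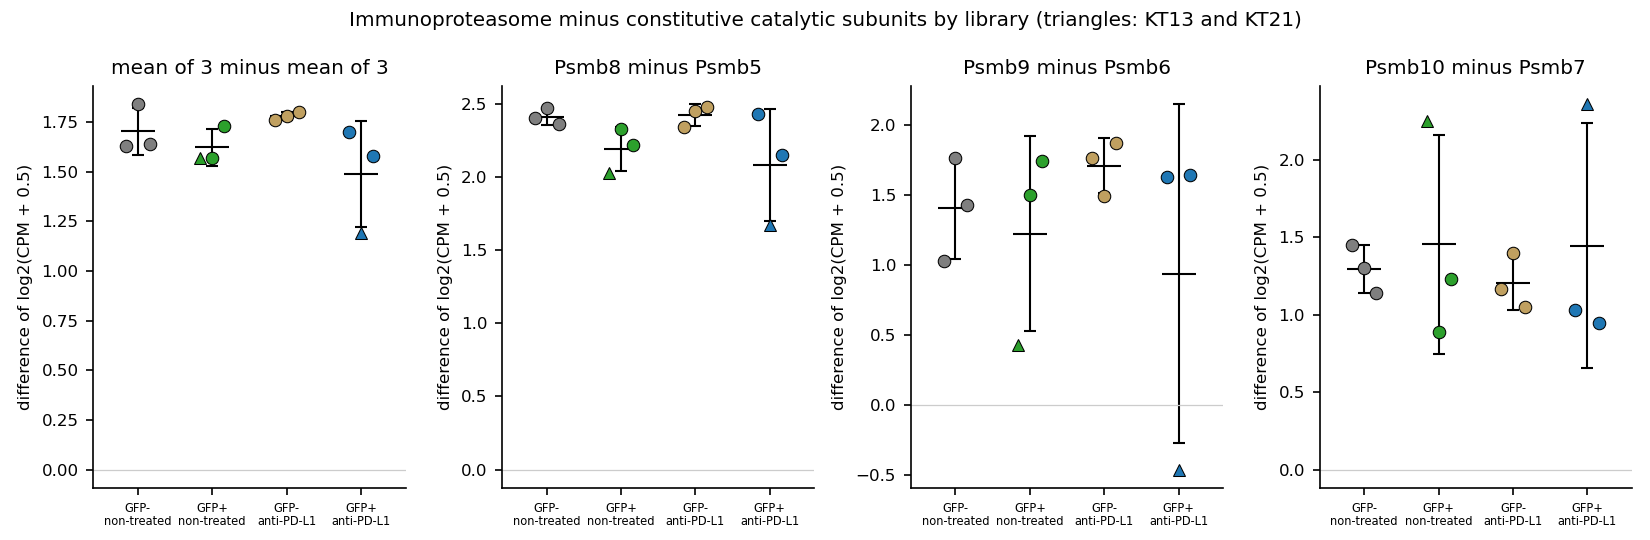
Difference of log2(CPM + 0.5) between immunoproteasome and constitutive catalytic subunits (vertical axis) in each library, by condition, as the mean over 3 pairs and for each pair; bars give mean and SD of 3 libraries, and triangles mark KT13 and KT21. After anti-PD-L1 the mean was 1.76 to 1.80 in GFP- and 1.19 to 1.7 in GFP+ libraries, and the triangles lay apart in opposite directions for Psmb9 minus Psmb6 and for Psmb10 minus Psmb7.

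The activators Psme1 and Psme2, which form the PA28 cap induced by interferon-gamma, and Psme3, the nuclear PA28 subunit, showed small differences. Psme2 was at 361, 363 and 330.4 CPM in anti-PD-L1 GFP- and at 327, 294 (KT21) and 302 CPM in anti-PD-L1 GFP+ libraries, without overlap, and its words were shared to 45.0% with Psme2b. In non-treated tumors Psme2 overlapped over 12 libraries, at 349, 343 and 337 CPM in GFP- and 379 (KT13), 304 and 321 CPM in GFP+ libraries. Psme1 ranged from 248 to 313 CPM in 10 libraries and stood at 351 and 388 CPM in KT13 and KT21. Psme3 ranged from 45.6 to 72 CPM, and its groups overlapped throughout.

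In the alpha ring, which forms the gate of the proteasome, Psma1 separated GFP+ from GFP- libraries under both treatments. It stood at 101, 102 and 87.1 CPM in non-treated GFP- and at 63.8 (KT13), 78.5 and 80.3 CPM in non-treated GFP+ libraries. After anti-PD-L1 it was at 94.5, 98.7 and 103 CPM in GFP- and at 86.2, 43.4 (KT21) and 91.8 CPM in GFP+ libraries. Over 12 libraries no other member had all GFP+ libraries below the GFP- libraries under both treatments, and over 10 libraries Psme2 also did. That was 2.63% of members over 12 libraries and 5.26% over 10, against 1.03% and 2.52% of all tested genes, and with 1 and 2 genes it sets Psma1 little apart from that background. The log2 fold change of Psma1 averaged over treatments was -0.40 ± 0.16 over 12 libraries (unadjusted p = 0.0255, adjusted p = 0.528 by edgeR) and -0.22 ± 0.091 over 10 (unadjusted p = 0.0256, adjusted p = 0.381).

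Psma7 was the member with the lowest p for anti-PD-L1 averaged over GFP. It stood at 232, 227 and 240.1 CPM in non-treated GFP-, 251 (KT13), 230.2 and 228 CPM in non-treated GFP+, 225, 216 and 200.4 CPM in anti-PD-L1 GFP- and 199, 165 (KT21) and 197 CPM in anti-PD-L1 GFP+ libraries. Every anti-PD-L1 library lay below every non-treated library, by a narrow margin in GFP- cells. The share of all tested genes with such an order over both GFP groups was not counted. Within 1 GFP group, 10.3% of all tested genes in GFP+ and 12.3% in GFP- cells did not overlap over 12 libraries. The log2 fold change of Psma7 was -0.23 ± 0.10 over 12 libraries (unadjusted p = 0.0303, adjusted p = 0.574 by edgeR) and -0.16 ± 0.078 over 10 (unadjusted p = 0.0464, adjusted p = 0.431).

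The other alpha subunits moved little outside KT13 and KT21. Psma5 was at 42.9 to 62.3 CPM in 10 libraries and at 15.5 and 10.5 CPM in KT13 and KT21. In GFP- cells it was higher in each anti-PD-L1 library (55.6, 54.7 and 59.9 CPM) than in each non-treated library (42.9, 54.5 and 47.3 CPM). Psma2 was at 310.4 to 359 CPM in 10 libraries and at 207 and 182 CPM in those 2. Psma3, Psma4 and Psma6 ranged from 157 to 193, 136 to 176 and 71 to 128 CPM. Words at the 3′ end were shared with other genes to 40.6% for Psma5, 37.1% for Psma3 and 38.5% for Psmb3, so their reads are uncertain. Of the non-catalytic beta subunits, Psmb1 was at 251 to 306 CPM in 10 libraries and at 398 and 430 CPM in KT13 and KT21, and Psmb3 at 150.1 to 235 CPM in all libraries other than KT13, where it was at 396 CPM. Psmb2 ranged from 10.8 to 33.5 CPM and Psmb4 from 179.8 to 285 CPM, and Psmb2 had the widest interval of all members over 10 libraries, ± 0.40 for GFP+ against GFP- averaged over treatments.

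Over the 38 members, none was called at an adjusted p under 0.05 in any of the 7 comparisons, over 12 or 10 libraries. The comparisons share libraries with each other and are not independent. Few genes of the whole table were called in the same fits, so the members' counts of 0 are read against a low background. After anti-PD-L1, GFP+ against GFP- called 0.0282% of all tested genes over 12 libraries and 0.17% over 10. The shares were 0.0141% and 0.563% for anti-PD-L1 in GFP+ cells, 0.0% and 0.373% for anti-PD-L1 in GFP- cells, and 0.0% and 0.0% for the interaction of GFP and anti-PD-L1. Averaged comparisons called 0.31% and 1.08% for GFP and 0.395% and 1.36% for anti-PD-L1. DESeq2 and limma voom with sample quality weights also called 0 members over 12 libraries. DESeq2 called 0.374% of all genes for GFP in non-treated tumors and 0.268% after anti-PD-L1, 0.628% and 0.233% for anti-PD-L1 in GFP+ and GFP- cells, 0.0% for the interaction, and 1.11% and 1.27% for the averaged comparisons of GFP and anti-PD-L1. With voom the shares were 0.0847%, 0.141%, 0.367%, 0.24%, 0.0%, 0.889% and 0.931% in the same order.

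At an unadjusted p under 0.05 by edgeR, 2 members passed for GFP in non-treated tumors over 12 libraries, H2-K1 and H2-Q7, both lower (5.26% of members, 6.05% of all genes), and 7 over 10 libraries, 6 of them lower (18.4% against 9.24%). After anti-PD-L1 the counts were 0 and 1, against 4.08% and 5.34% of all genes. Averaged over treatments they were 3, all lower (7.89% against 8.18%), and 8, of which 7 were lower (21.1% against 10.3%). The 8 were Tap2, which was higher, and H2-K1, H2-Q7, H2-M3, Tap1, Psma1, Psmb2 and Psmb3, which were lower. For anti-PD-L1 they were 1 and 1 in GFP+ cells (2.63% against 6.74% and 8.54%), 0 and 2 in GFP- cells (all genes 3.44% and 7.22%), 0 and 1 for the interaction (all genes 2.08% and 4.29%) and 1 and 1 averaged over GFP (2.63% against 7.67% and 11.2%). DESeq2 and voom passed 4 of the 38 members each for GFP averaged over treatments, in fits that passed 9.27% and 10.1% of all genes.

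Groups did not overlap for 6 members between GFP+ and GFP- libraries of non-treated tumors, all of them lower in GFP+ (15.8% of members, 12.8% of all genes). These were H2-K1, H2-D1, H2-Q7, H2-T22, Psma1 and Psma2. Over 10 libraries there were 13, of which 11 were lower (34.2% against 25.2%). After anti-PD-L1 there were 4, Psme2, Psma1, Psma7 and Psmb4 (10.5% against 10.6%), and 7 over 10 libraries (18.4% against 22%), all lower in GFP+. Anti-PD-L1 separated 1 member in GFP+ cells over 12 libraries (2.63% against 10.3%) and 13 over 10 (34.2% against 39.1%), and 3 in GFP- cells, Psmb9, Psma5 and Psma7, in both sets (7.89% against 12.3% and 12.2%). A single member is 2.63% of the 38.

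Of the 38 members, 25 (65.8%) had a log2 fold change under 0 for GFP+ against GFP- averaged over treatments over 12 libraries, with a median of -0.081, and 27 (71.1%) over 10, with a median of -0.10, against 49.4% and 50.7% of all genes. The heavy chains had a median of -0.33 and -0.17, the constitutive catalytic subunits of 0.23 and 0.061, the immunoproteasome subunits of -0.071 and -0.075 and the alpha ring of -0.086 and -0.064. The non-catalytic beta subunits had a median of 0.031 over 12 libraries, with 2 of 4 under 0, and of -0.18 over 10, with 4 of 4 under 0. The activators stood at -0.10 in both sets, and peptide supply and loading at 0.016 and -0.06. For anti-PD-L1 averaged over GFP, 17 members (44.7%) were under 0 in either set, with medians of 0.009 and 0.011. No role had a median beyond 0.1 in that comparison other than the single light chain B2m, at 0.18 over 12 libraries and -0.0023 over 10. Within GFP+ cells the heavy chains had a median of -0.003 over 12 libraries (4 of 8 over 0) and 0.12 over 10 (8 of 8 over 0). Leaving out KT13 alone gave -0.11 in GFP+ cells (1 of 8 over 0), and leaving out KT21 alone gave 0.26 (7 of 8 over 0). In GFP- cells the heavy chains had medians of -0.078 and -0.076, with 2 of 8 over 0 in both sets. Peptide supply and loading had 8 of 8 over 0 in GFP- cells in both sets, with medians of 0.054 and 0.056, and 2 of 8 over 0 in GFP+ cells, with medians of -0.044 and -0.11.

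Anti-PD-L1 changed none of the fixed key genes past the threshold when averaged over GFP. Over 12 libraries the log2 fold change was 0.011 ± 0.11 for H2-K1, 0.10 ± 0.19 for H2-D1, 0.18 ± 0.14 for B2m, 0.13 ± 0.14 for Tap1 and 0.09 ± 0.14 for Nlrc5, with adjusted p from 0.894 to 1.0. The proteasome subunits Psmb5, Psmb6, Psmb7, Psmb8, Psmb9 and Psmb10 gave 0.13, -0.08, 0.06, 0.058, 0.0068 and 0.068, each with an interval that held 0. Over 10 libraries the 95% intervals were -0.12 to 0.15 for H2-K1, -0.12 to 0.12 for B2m and -0.14 to 0.16 for Psmb8.

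The width of the intervals set what could be seen. For the averaged comparisons, the half-width of the 95% interval had a median of 0.30 on the log2 scale over 12 libraries, from 0.19 for Psmb8 to 1.17 for Tap2, and a median of 0.18 over 10. For a single treatment or GFP group the median was 0.43 over 12 libraries. The whole interval lay within ± 0.5 for 19 members over 12 libraries and 34 over 10 for GFP, and for 31 and 37 members for anti-PD-L1. A change of 1 log2 unit, that is a doubling, was outside the interval of 36 and 38 members for GFP and of 37 and 38 for anti-PD-L1.

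**Figure D3:**
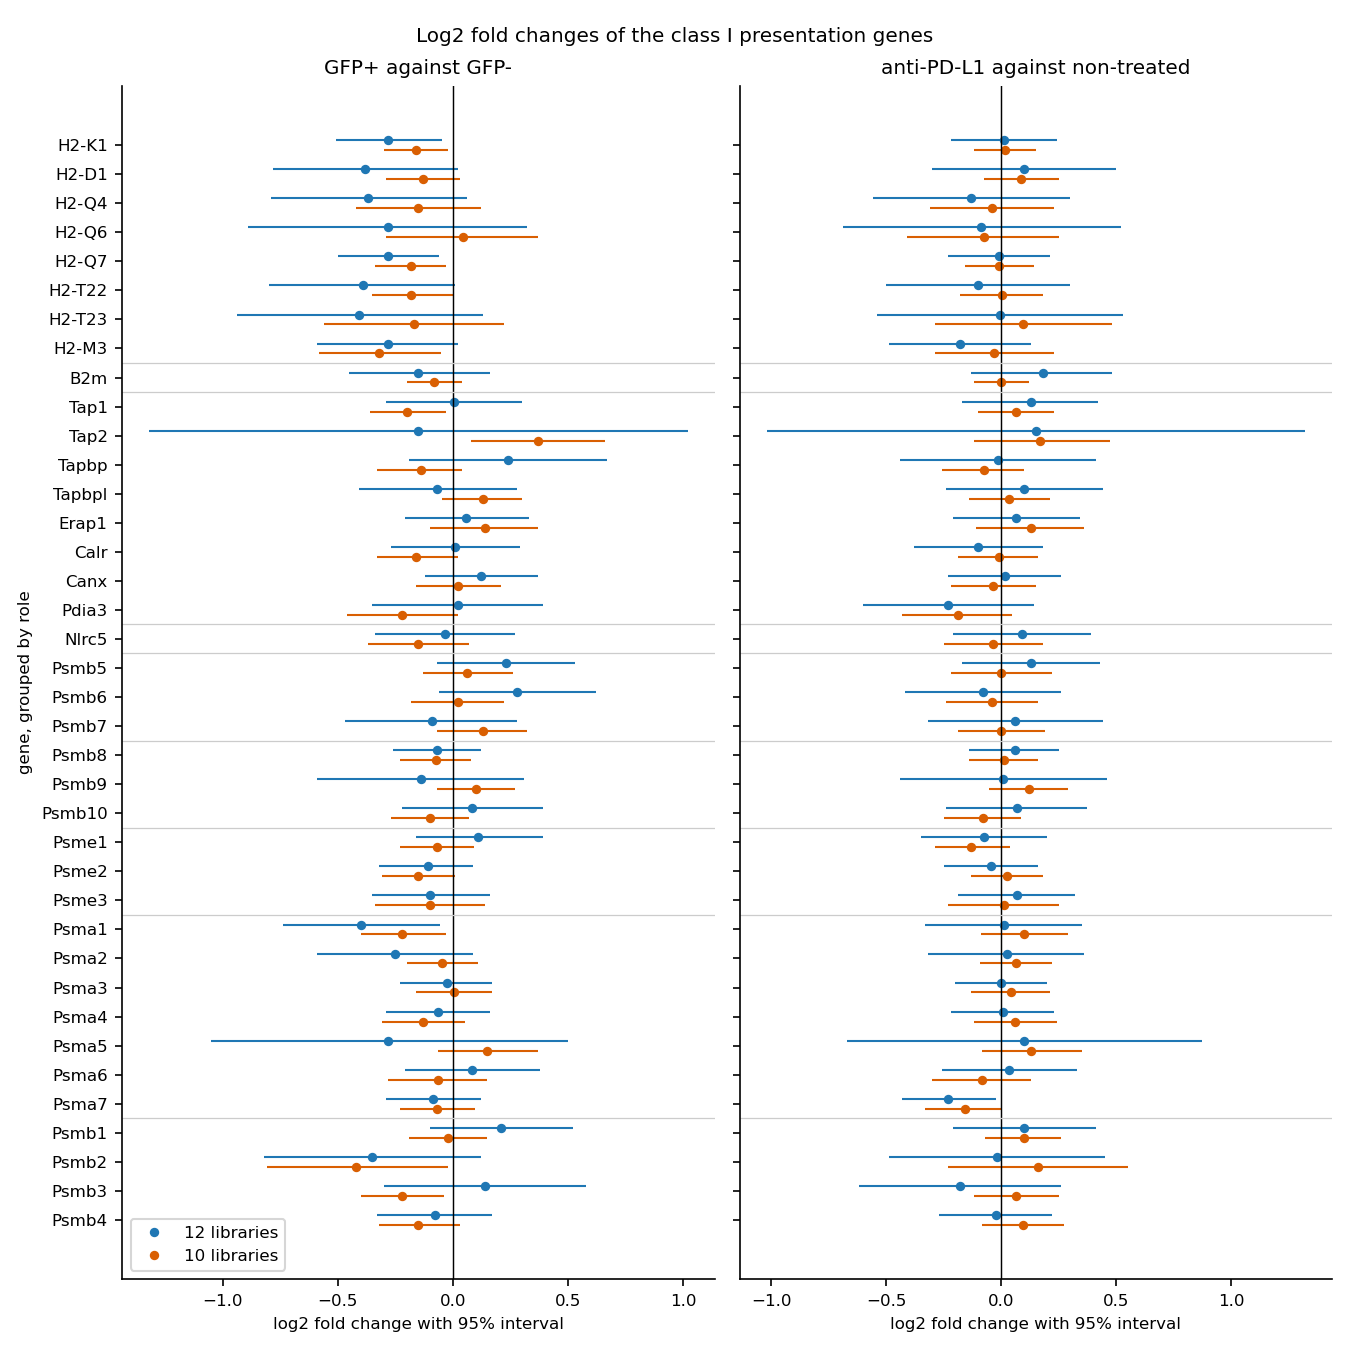
Log2 fold changes (horizontal axis) with 95% intervals of the 38 members, in order of role, for GFP+ against GFP- averaged over treatments (left) and anti-PD-L1 against non-treated averaged over GFP (right), over 12 and 10 libraries. The heavy chains lie left of 0 in the left panel, apart from H2-Q6 at 0.042 over 10 libraries, and Tap2 has the widest interval over 12 libraries.

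KT13 and KT21 differed from the other 2 libraries of their own groups, and mostly to the same side. Their departures on the log2 scale were -3.03 and -4.06 for Tap2, -1.86 and -2.43 for Psma5, -1.27 and -1.35 for H2-Q6 and -1.0 and -0.86 for H2-D1. In the other direction, Tapbp departed by 0.80 and 1.06, Psmb1 by 0.61 and 0.62 and Psmb6 by 0.74 and 0.57. Of the 38 members, 28 (73.7%) departed to the same side in both libraries, against 9290 of the 14173 tested genes (65.5%), and Pearson's r of the departures was 0.81 over the 38 members and 0.56 over all 14173 tested genes, as a description in which members of a library share its depth and preparation. B2m went apart, at -0.93 in KT13 and 0.32 in KT21.

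The median absolute departure of the members was 0.42 in KT13 and 0.56 in KT21, against 0.45 and 0.48 for all tested genes. For the 6 GFP- libraries it was 0.09 to 0.15 for members and 0.21 to 0.27 for all genes, measured in the same way. For the other 4 GFP+ libraries, whose groups include KT13 or KT21, it was 0.24 to 0.31 for members and 0.30 to 0.34 for all genes. In KT21, 8 members lay more than 1 log2 unit below and 1 above its group, and in KT13 4 lay below and 1 above. Those were 23.7% and 13.2% of the members, against 18.7% and 18.5% of all tested genes beyond 1 log2 unit in either direction. KT13 and KT21 had the lowest total counts of the 12, 11292699 and 12881695, and mitochondrial shares of 2.87% and 2.86%, within the range of the others. The part of depth in these departures was not tested.

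**Figure D4:**
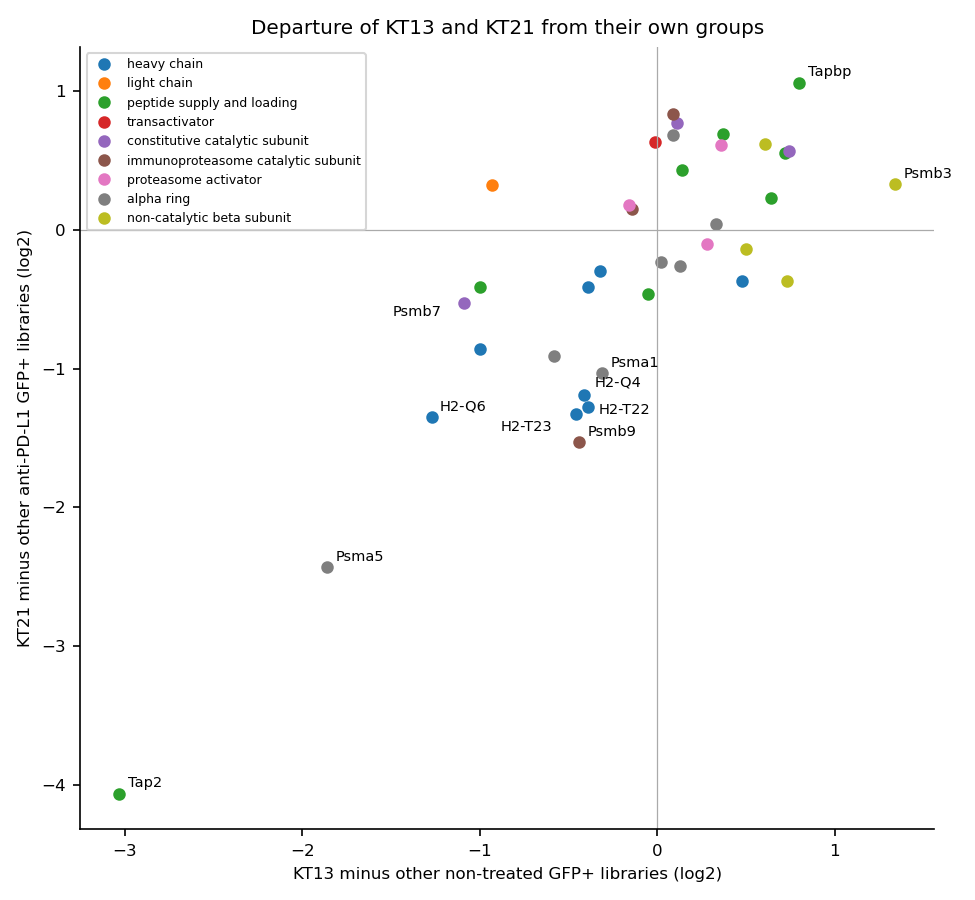
Departure of KT13 from the other non-treated GFP+ libraries (horizontal axis, log2) against that of KT21 from the other anti-PD-L1 GFP+ libraries (vertical axis, log2) for the 38 members, coloured by role. Tap2 and Psma5 lie far below 0 in both libraries, and 28 of 38 members depart to the same side.

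Other genes of the pathway that are not members were examined in 4 lists. Of 31 genes of the proteasome base, lid, assembly and further activators 29 were tested over 12 libraries, of 17 further class I and class I-like heavy chains 11, of 17 genes of peptide trimming, transport and folding 17, and of 23 interferon receptors and transcription regulators 22. None was called at an adjusted p under 0.05 by edgeR in any of the comparisons. For GFP averaged over treatments, 1 of the 29 proteasome genes passed an unadjusted p under 0.05 over 12 libraries, and 0 of the other 3 lists, whereas over 10 libraries 1, 0, 1 and 2 passed, against 8.18% and 10.3% of all genes. The median log2 fold changes of the 4 lists for GFP were -0.072, -0.037, -0.036 and -0.047 over 12 libraries and -0.04, 0.031, 0.009 and -0.107 over 10, against 0.004 and -0.005 over all tested genes. For anti-PD-L1 averaged over GFP they were 0.01, -0.085, 0.147 and -0.041 over 12 libraries and 0.026, 0.049, 0.098 and 0.007 over 10, against -0.005 and -0.001. The further heavy chains were divided in direction for GFP, with 6 of 11 under 0 over 12 libraries and 5 of 12 over 10, where 8 and 7 of the 8 member heavy chains were under 0, and the difference between these lists was not tested.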

How the data were processed

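The authors deposited 1 table of raw counts for 52636 gene identifiers in 12 libraries. Per the study's methods, Cutadapt trimmed the reads, HISAT2 placed them on mm10 and featureCounts assigned them to genes, without normalization. The submitters' processing notes name Subread 1.6.4 and cutadapt 1.7, whereas the study's methods name another version of Cutadapt and the Rsubread package, and which made the counts is not given in the sources used here. How strand and multiply matching reads were treated is not given in the sources used here, and counts carry no molecular identifiers.

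Symbols from GENCODE vM21 matched 52403 identifiers. Groups came from the sample labels and replicates are library codes. The study shows fewer GFP+ libraries than the labels list and does not name those left out. No library was a copy of another (chi-square per degree of freedom within conditions at least 11.9). TMM normalization was applied in edgeR 4.0.16 (R 4.3.3), and genes were filtered by filterByExpr on the 4 conditions and compared by its quasi-likelihood F test in 1 fit without covariates, with Benjamini-Hochberg adjustment over all tested genes and a threshold of 0.05. CPM are TMM-normalized. Fits were tested on simulated data. Fold changes with tests are given for 11 key genes in the averaged comparisons and for members with an unadjusted p under 0.05 over 12 and 10 libraries. For GFP, those of H2-K1 and H2-Q7 are given in non-treated cells and not averaged over treatments. Tap2 was added after its values were seen. Alternatives were DESeq2 1.42.0, limma 3.58.1 voom with sample quality weights, upper-quartile normalization, other filters on low counts, only the groups compared, a pseudocount of 5 and leaving out libraries. The members and lists were chosen with earlier results of these data known.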

Additional observations from a re-analysis of the deposited data

How the results depend on the processing

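The count of members called was 0 in each of the 7 comparisons under each alternative fit of the counts, of which that of only the groups compared was run for 4. These fits called 0.0% to 2.04% of all tested genes, so a count of 0 among 38 members is near the background. The lowest adjusted p was 0.149 (edgeR without KT13 and KT21) and 0.112 with DESeq2 without KT13 and KT21, which was chosen after seeing the data. The 8 heavy chains kept a log2 fold change under 0 for GFP in non-treated cells under each of these fits, and no scaling moved the median of all genes by over 0.1. Of the 28 single-gene results, 12 kept their sign throughout, and none crossed the threshold. Without KT13 and KT21 the immunoproteasome difference for GFP after anti-PD-L1 went from -0.29 to -0.14, a move smaller than the pooled SD of 0.154 over 12 libraries, in which KT21 is included, but larger than that of 0.0898 over 10, and for anti-PD-L1 averaged over GFP it went from -0.031 to 0.03. The 3′ reads limit the H2 paralogs, groups of 3 pools limit the intervals, and leaving out KT13 and KT21 leaves 2 GFP+ libraries per treatment. No paired analysis was run, because the labels pair no libraries and the library codes are not shared between groups. Codes alternate between GFP+ and GFP- libraries, and whether neighbours such as KT13 and KT14 share mice is not given. H2-K1, H2-D1, H2-Q7, H2-T23 and, outside the heavy chains, Psma1 were lower in the GFP+ library of every such neighbouring pair. H2-Q4, H2-Q6, H2-T22 and H2-M3 were not. The share of all tested genes with that order was not counted, so it is not read as a result about the members. A difference within neighbours was not tested.

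The other 16 results changed sign at least once, and the cause was not tested. For GFP+ against GFP- averaged over treatments, values without KT13 and KT21 were -0.20 for Tap1, 0.13 for Psmb7, 0.10 for Psmb9 and -0.10 for Psmb10 with both edgeR and DESeq2. With voom they were -0.15, 0.038, 0.026 and -0.049. For anti-PD-L1 against non-treated averaged over GFP, values without KT13 and KT21 were -0.0023 for B2m, -0.035 for Nlrc5, -7.2e-07 for Psmb5, -0.00083 for Psmb7 and -0.082 for Psmb10 with edgeR. With DESeq2 without these libraries they were -0.011, -0.044, -0.0087, -0.01 and -0.09, and voom gave -0.05 for Psmb10. Upper-quartile normalization gave -0.0086 for H2-K1 and -0.016 for Psmb9.

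Leaving out each library in turn gave ranges that held 0. For GFP these were -0.13 to 0.093 for Tap1, -0.16 to 0.042 for Nlrc5, -0.21 to 0.047 for Psmb7, -0.26 to 0.033 for Psmb9 and -0.084 to 0.18 for Psmb10, and -0.11 to 0.73 for Tap2 in non-treated cells. For anti-PD-L1 they were -0.047 to 0.074 for H2-K1, -0.03 to 0.22 for H2-D1, -0.005 to 0.20 for Tap1, -0.028 to 0.17 for Nlrc5, -0.017 to 0.23 for Psmb5, -0.18 to 0.069 for Psmb6, -0.079 to 0.18 for Psmb7, -0.10 to 0.19 for Psmb9 and -0.10 to 0.15 for Psmb10.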
